A study of Mus musculus with 24 samples.

Results

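The genes described here carry antigen presentation by major histocompatibility complex (MHC) class II, and 7 of them were followed across 24 mammary tumours: H2-Aa, H2-Ab1, H2-Eb1, Cd74, H2-DMa, H2-DMb1 and Ciita. They were taken by symbol from count files that list 46318 gene IDs. RNA sequencing had been done on bulk tumours of MMTV-PyMT mice, which carry the polyoma middle T oncogene under a mammary tumour virus promoter that is active mainly in mammary epithelium. Of the libraries, 12 are labelled knockout (KO) and 12 wild type (WT) for SHP, the orphan nuclear receptor encoded by Nr0b2, and both groups carry the oncogene. Tumours of both groups were taken at 2000 mm3. The sources used here give neither the strain and age of the mice nor how Nr0b2 was removed, and they do not say that every tumour came from its own mouse. The p-values below therefore measure the spread between tumours, part of which may be technical.

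Class II molecules are pairs of an alpha and a beta chain that show peptides from engulfed proteins to CD4 T cells. Cd74 encodes the invariant chain, which escorts the new pair to endosomes, where proteases trim it and H2-DM, a class II-like editor, exchanges the remaining fragment for peptide. Dendritic cells, macrophages and B cells make these molecules, and many other cells do so after interferon gamma. Ciita encodes the coactivator that switches the whole group on, from promoters that hold a conserved pair of sequences called the X box and the Y box.

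Library totals ran from 18789250 to 38022182 counted reads. Nr0b2 itself went against the labels, with 182 reads in the libraries labelled KO, 3 to 71 in each, and 1 read in those labelled WT, 11 of which had 0. Nr0b2 failed the filter on low counts and was fitted in addition. The edgeR quasi-likelihood test gave it a log2 fold change of 6.53 (adjusted p = 7.24e-05). Counts per gene cannot tell whether these reads come from a stretch that a targeted allele retains or whether the labels are exchanged, and neither was tested. Directions below go by the labels, without a measured loss of the gene. The epithelial markers that define the labelled tissue were abundant in both groups: Epcam averaged 1062 CPM (reads scaled to the size of the library, with TMM normalisation) in libraries labelled KO and 1017 CPM in those labelled WT, and Krt8 averaged 1274 CPM in KO and 1151 CPM in WT.

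All 7 class II genes passed the filter on low counts, and none passed the test between the groups. Each had a higher mean in the libraries labelled KO, by log2 fold changes of 0.13 to 0.32 with a median of 0.27, while the median of all 15820 tested genes was 0.0075. The edgeR quasi-likelihood test with Benjamini-Hochberg adjustment over all tested genes called 0 of the 7, with adjusted p-values from 0.2858 to 0.7116. At an unadjusted p under 0.05 the count was also 0. Over all genes, 50 were called (0.316%), 28 higher in KO (0.177%) and 22 lower (0.139%). An unadjusted p under 0.05 was found for 18.9% of genes, 10% higher and 8.9% lower in KO. DESeq2 and limma voom also called 0 of the 7. The ranges of the groups overlapped for each of the 7 genes.

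The genes of the 2 classical molecules, H2-A and H2-E, lie together on chromosome 17 (GRCm39). H2-Ab1, the beta chain of H2-A (GeneID 14961, positions 34482201 to 34488392, plus strand), had 175.3 CPM in the lowest library labelled KO, a median of 250.6 CPM and 465.3 CPM in the highest. In the libraries labelled WT the lowest, median and highest values were 110.6, 253.5 and 319.5 CPM. The KO libraries thus had a similar median but a longer upper end, and 4 of them, KO 11 (465.3 CPM), KO 10 (425.2 CPM), KO 4 (379.4 CPM) and KO 3 (369.6 CPM), lay above every library labelled WT. The means were 286.3 ± 101.1 CPM in KO and 238 ± 70.38 CPM in WT (SD, n = 12 each), a log2 fold change of 0.27 ± 0.19 (SE; 95% interval -0.12 to 0.66; adjusted p = 0.4384 in edgeR).

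H2-Aa, the alpha chain of H2-A (GeneID 14960, 34501718 to 34506797, minus strand), had a lowest value of 169.1, a median of 317.6 and a highest value of 645 CPM in KO, and 118, 304.8 and 473 CPM in WT. Again 4 libraries labelled KO exceeded all of WT, and 1 library labelled WT, WT 23, lay below all of KO. The means were 381 ± 156.4 CPM in KO and 312.9 ± 111.1 CPM in WT, with a log2 fold change of 0.28 ± 0.22 (95% interval -0.18 to 0.75; adjusted p = 0.4924 in edgeR). H2-Eb1, the beta chain of H2-E (GeneID 14969, 34524841 to 34535648, plus strand), ran from 167.5 through a median of 246.6 to 435.8 CPM in KO, and from 100.4 through 262.6 to 346.1 CPM in WT. Its log2 fold change was 0.23 ± 0.20 (adjusted p = 0.5513 in edgeR). H2-Ea, which encodes the alpha chain that pairs with H2-Eb1 and is a null gene in some inbred mouse haplotypes, was listed with 0 reads in all 24 libraries, where 3 counts correspond to 0.0789 to 0.16 CPM.

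Cd74 (GeneID 16149, chromosome 18, 60936921 to 60945724, plus strand) was the most abundant of the 7. Its lowest, median and highest values were 372.5, 538.9 and 990.7 CPM in KO and 225.2, 547 and 723.3 CPM in WT. The median was slightly lower in KO while the mean was higher, at 606.5 ± 235 CPM in KO and 522.2 ± 155.7 CPM in WT. Here 3 libraries labelled KO exceeded all of WT, and the log2 fold change was 0.22 ± 0.20 (adjusted p = 0.5632 in edgeR).

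H2-DMa and H2-DMb1 encode the 2 chains of the peptide editor H2-DM. H2-DMa (GeneID 14998, chromosome 17, 34338667 to 34358075, plus strand) had 15.77, 19.77 and 45.4 CPM as its lowest, median and highest values in KO and 11.09, 19.91 and 24.49 CPM in WT. The medians were nearly equal and the highest KO library was far above the highest WT one. Its log2 fold change was 0.32 ± 0.17 (95% interval -0.04 to 0.67; adjusted p = 0.3194 in edgeR), the largest of the 7. H2-DMb1 (GeneID 14999, 34372165 to 34379203, plus strand) had 17.72, 28.03 and 45.3 CPM in KO and 11.81, 28.81 and 38.92 CPM in WT. Its log2 fold change of 0.13 ± 0.18 was the smallest of the 7 (adjusted p = 0.7116 in edgeR), and it was -0.027 when KO 10, KO 11 and WT 24 were left out. The neighbouring copy H2-DMb2 has 25.2% of its transcript's 50-base windows in common with H2-DMb1, which has 26.6% in common with H2-DMb2. Reads from such stretches may not be assigned to either, so both levels are uncertain to that degree. Of the annotated exon bases of H2-DMa, 2.5% overlap Brd2 on the other strand, and the counting used no strand.

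Ciita (GeneID 12265, chromosome 16, 10297877 to 10348928, plus strand) had the smallest adjusted p of the 7. Its lowest, median and highest values were 12.81, 17.86 and 31.36 CPM in KO and 10.52, 15.54 and 22.89 CPM in WT. In KO, 10 of 12 libraries exceeded the WT median of Ciita, and 6 of 12 exceeded that of each of the other 6 genes. The means were 19.59 ± 5.442 CPM in KO and 15.95 ± 4.155 CPM in WT, and the log2 fold change was 0.30 ± 0.15 (95% interval -0.02 to 0.61; adjusted p = 0.2858 in edgeR). Of its annotated exon bases, 6.2% overlap Dexi and 2.74% overlap a non-coding gene, both on the other strand. The authors' deposited table gives the same picture, with adjusted p-values from 0.298 for Ciita to 0.719 for H2-DMb1 and log2 fold changes of 0.13 to 0.31.

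**Figure D1:**
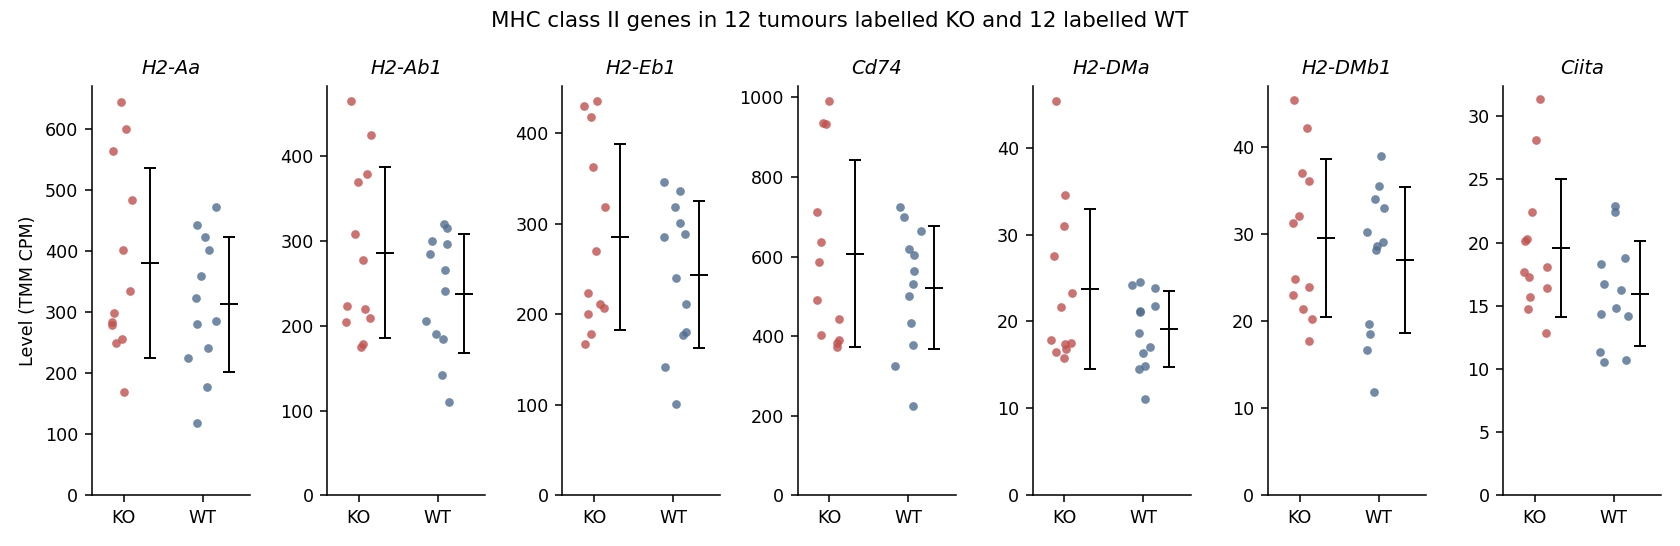
Level of each class II gene in TMM-normalised CPM (vertical axes from 0, 1 panel per gene), with 1 point per tumour, KO on the left and WT on the right, and the mean ± SD beside the points (n = 12 each). In all 7 panels the groups overlap, and for H2-Ab1 the KO points reach 465.3 CPM while the WT points end at 319.5 CPM.

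Per kilobase of annotated exon, the order of the levels was the same in both groups: Cd74, H2-Aa, H2-Ab1, H2-Eb1, H2-DMb1, H2-DMa, Ciita. Cd74 averaged 428.6 ± 166.1 CPM per kilobase in KO and 369 ± 110 in WT, H2-Aa 337.7 ± 138.6 in KO and 277.4 ± 98.5 in WT. The ranges of neighbours at the top of the order overlap across tumours, yet within single tumours the order was nearly constant. Cd74 was above H2-Aa, H2-Ab1 above H2-Eb1, and H2-Eb1 above H2-DMb1 in 12 of 12 KO and 12 of 12 WT libraries, and H2-Aa was above H2-Ab1 in 11 of 12 KO and 12 of 12 WT libraries. The editor and the coactivator were much lower, with H2-DMb1 at 23.02 ± 7.064 CPM per kilobase in KO and 21.02 ± 6.558 in WT. Ciita stood at 2.004 ± 0.5566 CPM per kilobase in KO and 1.632 ± 0.4252 in WT. H2-DMa, at 2.856 ± 1.108 in KO and 2.296 ± 0.5219 in WT, has 8325 annotated exon bases against 1284 for H2-DMb1, and the size of its gap to H2-DMb1 depends on that length. By CPM alone, H2-DMb1 still exceeded H2-DMa by a log2 ratio of 0.336 ± 0.228 in KO and 0.455 ± 0.289 in WT.

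Together the 7 genes took 0.07929% to 0.2717% of counted reads in the libraries labelled KO, with a median of 0.1366%, and 0.05977% to 0.1924% in those labelled WT, with a median of 0.1511%. The spread between tumours of 1 group was wider than the difference between groups. Within-group standard deviations of log2 CPM were 0.3747 for Ciita to 0.5956 for H2-Aa, against a median of 0.344 over all tested genes. KO 11 held the highest KO value of all 7 genes. WT 23 held the lowest WT value of 6 genes, and WT 19 that of Ciita.

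The 6 structural genes kept close to fixed proportions from tumour to tumour. Pearson correlations of log2 CPM were computed within each group for all pairs, 42 relations in all, and 40 passed an adjusted permutation p of 0.05. Among pairs without Ciita, r ran from 0.875 to 0.987 in the 12 libraries labelled KO and from 0.85 to 0.989 in the 12 labelled WT, and Spearman's rho from 0.853 to 1 and from 0.79 to 0.979. All 30 such values of each kind passed (largest adjusted p of r by permutation 0.00132). With the 2 libraries farthest from the median left out, r stayed between 0.811 and 0.986 in KO and between 0.623 and 0.97 in WT, and in WT the pair H2-DMa and H2-DMb1 had r = 0.623 without WT 23 and WT 18 (permutation p = 0.0545).

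H2-Ab1 and H2-Eb1, beta chains of different molecules, were the pair with the highest r in both groups, at 0.987 in KO and 0.989 in WT. The log2 ratio of H2-Eb1 to H2-Ab1 was -0.011 ± 0.082 in KO and 0.016 ± 0.102 in WT (SD, n = 12 each), so that their CPM differed little in any tumour. The ratio of H2-Aa to H2-Ab1 was 0.38 ± 0.182 in KO and 0.363 ± 0.197 in WT, and that of Cd74 to H2-Ab1 was 1.067 ± 0.141 in KO and 1.13 ± 0.095 in WT. None of the 10 ratios computed, between class II genes or of H2-Ab1 to cell type scores, passed the test between the groups (smallest permutation p = 0.2121, adjusted p = 0.897 for each, two-sided). For Cd74 to H2-Ab1 the difference was -0.063 ± 0.049 on the log2 scale (SE), and 2 of 12 KO libraries exceeded the WT median.

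The correlations of Ciita with the genes it controls had lower values. Its r with the other 6 was 0.637 to 0.749 in KO, and all 6 values passed (largest adjusted permutation p = 0.0291). In WT its r was 0.373 to 0.717, and 4 of 6 passed, with 2 of 6 by Spearman's rho. The pairs that missed were Ciita with H2-Ab1 (r = 0.569, adjusted permutation p = 0.0553) and with H2-DMb1 (r = 0.373, adjusted permutation p = 0.233). Several of these relations rested on single libraries. Without KO 11 and KO 10, the r of Ciita with Cd74 in KO was 0.409 (permutation p = 0.243), and with KO 11 alone left out the number of pairs that passed over both groups was 35. Whether the Ciita correlations differ from those among the other genes was not tested. The log2 ratio of Ciita to H2-Ab1 was -3.83 ± 0.33 in KO and -3.869 ± 0.416 in WT, a wider spread than that of H2-Eb1 to H2-Ab1.

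**Figure D2:**
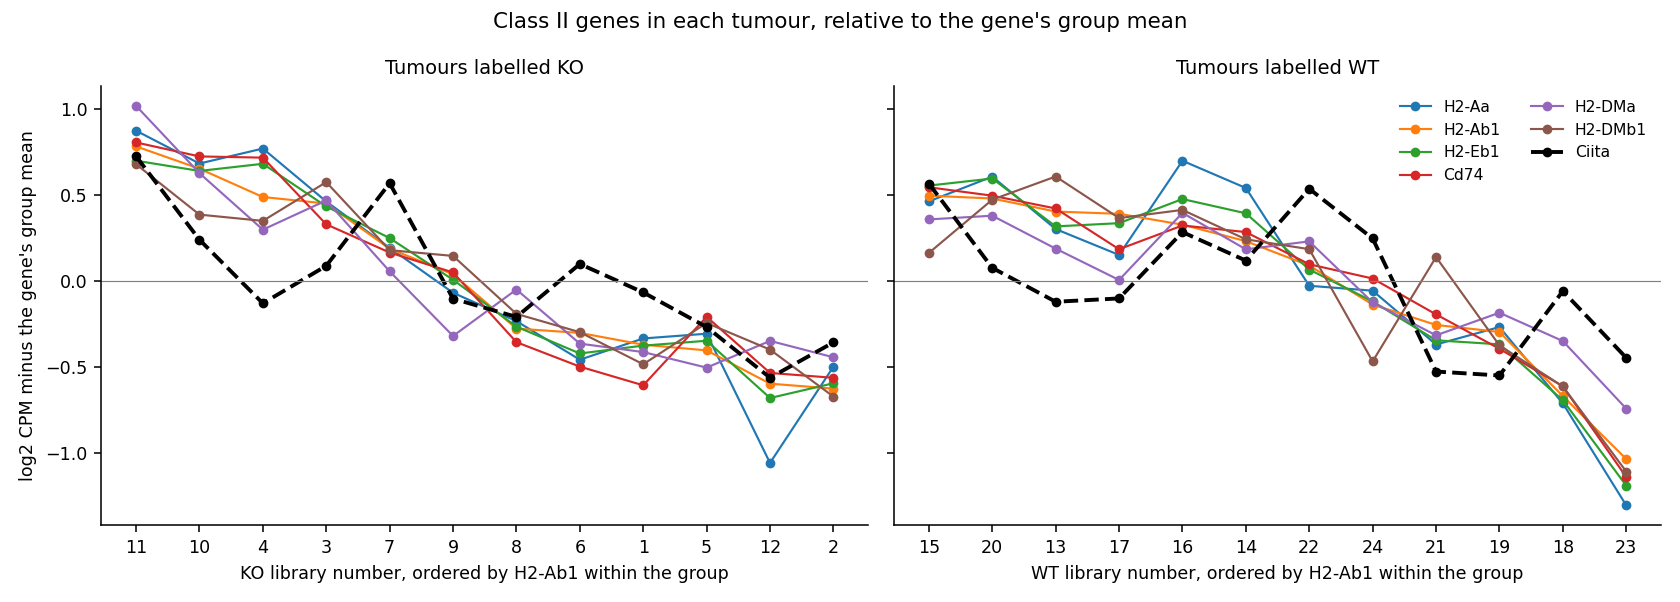
Log2 CPM of each class II gene minus its mean in the group (vertical axis), for the 12 KO libraries on the left and the 12 WT libraries on the right, each ordered by H2-Ab1. The 6 solid lines run together, with r of 0.875 to 0.987 among KO pairs, while the dashed line of Ciita departs from them in single tumours such as KO 4 and KO 7.

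The promoters of genes that move together were read from the RefSeq table of start sites (mouse GRCm38.p6), which holds 4 of the 7 genes, namely H2-Aa, H2-Eb1, H2-DMa and H2-DMb1. The 150 bases before the start are shown for the 3 of these genes that hold a Y box there, and for H2-DMb2, the copy of H2-DMb1. The letters AACNGATG, called the X box core here, belong to the X box, which the RFX complex binds, and the Y box, GATTGG, is bound by NF-Y. Capitals mark these letters on either strand. The strings were chosen after these promoters had been read.
H2-Eb1 (chr17:34305717-34305866, plus strand): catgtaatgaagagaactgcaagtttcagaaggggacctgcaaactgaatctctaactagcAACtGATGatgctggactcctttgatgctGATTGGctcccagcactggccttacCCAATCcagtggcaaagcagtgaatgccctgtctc
H2-DMb1 (chr17:34153041-34153190, plus strand): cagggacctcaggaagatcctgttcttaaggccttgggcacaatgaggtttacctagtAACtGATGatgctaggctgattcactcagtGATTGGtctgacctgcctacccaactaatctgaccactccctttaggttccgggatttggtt
H2-DMb2 (chr17:34145099-34145248, plus strand): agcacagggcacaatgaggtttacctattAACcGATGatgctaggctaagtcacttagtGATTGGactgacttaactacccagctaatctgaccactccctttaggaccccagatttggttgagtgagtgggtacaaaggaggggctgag
H2-Aa (chr17:34287824-34287973, minus strand): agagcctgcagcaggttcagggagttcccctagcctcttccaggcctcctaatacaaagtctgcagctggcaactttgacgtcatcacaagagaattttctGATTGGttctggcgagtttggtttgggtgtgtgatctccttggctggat

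In H2-Eb1 the X box core and the Y box on the gene's strand are separated by 21 bases, and in H2-DMb1 and H2-DMb2 by 22 bases. H2-Aa holds the Y box at positions -49 to -44 from the start and no match to AACNGATG in the 250 bases searched. AACNGATG is only part of the X box, so a missing match does not show that H2-Aa lacks an X box. H2-DMa has 2 annotated starts, and the Y box stands at -199 to -194 of the second. Over the 32851 promoter windows of the table, 1.98% hold the X box core on either strand, 14.6% the Y box and 0.25% both. The arrangement of the core followed by the Y box after 15 to 30 bases on the gene's strand is found in 5 windows, those of H2-Eb1, H2-DMb1, H2-DMb2, H2-Eb2 and BC051142, all on chromosome 17. The strings were chosen after the class II promoters had been read, and the span takes in the 21 and 22 bases found there. That class II genes are among the 5 is therefore no test. A match describes letters and is no measure of binding in these tumours.

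Other genes of the pathway, its regulators and its surroundings were read in 5 lists, and none of their tested genes was called, where 0.316% of all genes were. Of all 15820 tested genes, 8119 had a log2 fold change above 0, to be read beside the counts of each list. The paralogues of the chain and editor genes had a median log2 fold change of 1.47 over the 3 tested of 5 listed, all 3 positive. H2-Ob, the beta chain of H2-DO, which inhibits H2-DM in B cells, had 0.5662, 0.8851 and 32.17 CPM as its lowest, median and highest values in KO and 0.2513, 0.9113 and 4.728 CPM in WT. Its log2 fold change was 2.03 ± 0.71 (adjusted p = 0.1571 in edgeR), but no more than 5 of the 12 KO libraries exceeded the WT median. H2-Eb2, a second H2-E beta gene, failed the count filter and was fitted in addition, with 0.1708, 0.3243 and 9.06 CPM in KO and 0.03589, 0.2443 and 1.24 CPM in WT (log2 fold change 2.03 ± 0.69, adjusted p = 0.1478 in edgeR). For both genes much of the fold change came from few tumours. The medians of H2-Ob were close, while 9 of the 12 KO libraries exceeded the WT median of H2-Eb2. Without KO 11 the log2 fold changes were 1.02 for H2-Ob and 0.838 for H2-Eb2. Without KO 10, KO 11 and WT 24 they were 0.153 for H2-Ob and 0.486 for H2-Eb2.

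Among 8 lysosomal processing genes, 7 had a positive log2 fold change, with a median of 0.20. Of the 8, 3 had an unadjusted p under 0.05 in edgeR, where 18.9% of all tested genes did. Ctsl, which encodes cathepsin L, a protease that trims the invariant chain in thymic epithelium, came nearest to the threshold. Its lowest, median and highest values were 335.4, 391.8 and 634.7 CPM in KO and 174.6, 324.2 and 400.3 CPM in WT, so that 12 of 12 KO libraries exceeded the WT median. The log2 fold change was 0.49 ± 0.13 (adjusted p = 0.0938 in edgeR). DESeq2 gave it an adjusted p of 0.026, in a fit that called 418 genes. Ifi30, the lysosomal thiol reductase that opens disulphide bonds of antigens, averaged 77.12 ± 19.67 CPM in KO and 62.86 ± 7.708 CPM in WT (log2 fold change 0.29 ± 0.11, adjusted p = 0.1842 in edgeR). Ctss, the protease that makes the last cuts in the invariant chain in dendritic cells and B cells, averaged 303.1 CPM in KO and 264.5 CPM in WT (adjusted p = 0.4878 in edgeR).

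Of 18 transcription factors and inducers, 17 were tested, 7 with a positive and 10 with a negative log2 fold change, and their median was -0.04. Rfxap, a subunit of the RFX complex, averaged 29.02 ± 7.815 CPM in KO and 23.02 ± 2.472 CPM in WT (log2 fold change 0.33 ± 0.11, adjusted p = 0.1482 in edgeR). The other RFX subunits had negative log2 fold changes, with Rfx5 at 26.6 CPM in KO and 28.23 CPM in WT (adjusted p = 0.6125) and Rfxank at 17.8 CPM in KO and 19.54 CPM in WT (adjusted p = 0.3416 in edgeR). Irf4, a factor of activated B cells, plasma cells and some dendritic cells, had 0.5792, 2.699 and 16.84 CPM in KO and 0.323, 1.338 and 4.13 CPM in WT (log2 fold change 1.13 ± 0.45, adjusted p = 0.1978 in edgeR; 0.607 without KO 11). Ifng, the cytokine that induces Ciita in many cells, was near the limit of detection, with 16 reads over all libraries labelled KO and 21 over those labelled WT.

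Genes induced by interferon gamma had values on both sides of 0: of 14 tested, 5 had a positive and 9 a negative log2 fold change, with a median of -0.07 and none at an unadjusted p under 0.05. Gbp3 and Gbp2, guanylate-binding proteins, had the smallest p-values of the list. Gbp3 averaged 94.74 ± 53.13 CPM in KO and 67.12 ± 38.58 CPM in WT (adjusted p = 0.3795 in edgeR; log2 fold change 0.50, and 0.317 without KO 9), and Gbp2 111.6 ± 42.45 CPM in KO and 95.19 ± 47.34 CPM in WT (adjusted p = 0.6304 in edgeR). Of 9 surface partners, 7 had a positive log2 fold change. Cd4, the coreceptor that binds class II on T cells and is found on some myeloid cells, averaged 4.207 ± 4.45 CPM in KO and 2.136 ± 1.065 CPM in WT (log2 fold change 0.98 ± 0.40, adjusted p = 0.2019 in edgeR; 0.538 without KO 11). Cd40, a receptor through which T cells activate presenting cells, averaged 3.157 ± 1.781 CPM in KO and 2.171 ± 0.6334 CPM in WT (0.54 ± 0.24, adjusted p = 0.2219 in edgeR; 0.306 without KO 11). Without KO 10, KO 11 and WT 24 the log2 fold changes of Cd4 and Cd40 were 0.181 and 0.236. Marchf1, the ubiquitin ligase that removes class II from the surface, averaged 14.61 CPM in KO and 11.47 CPM in WT (adjusted p = 0.4095 in edgeR).

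**Figure D3:**
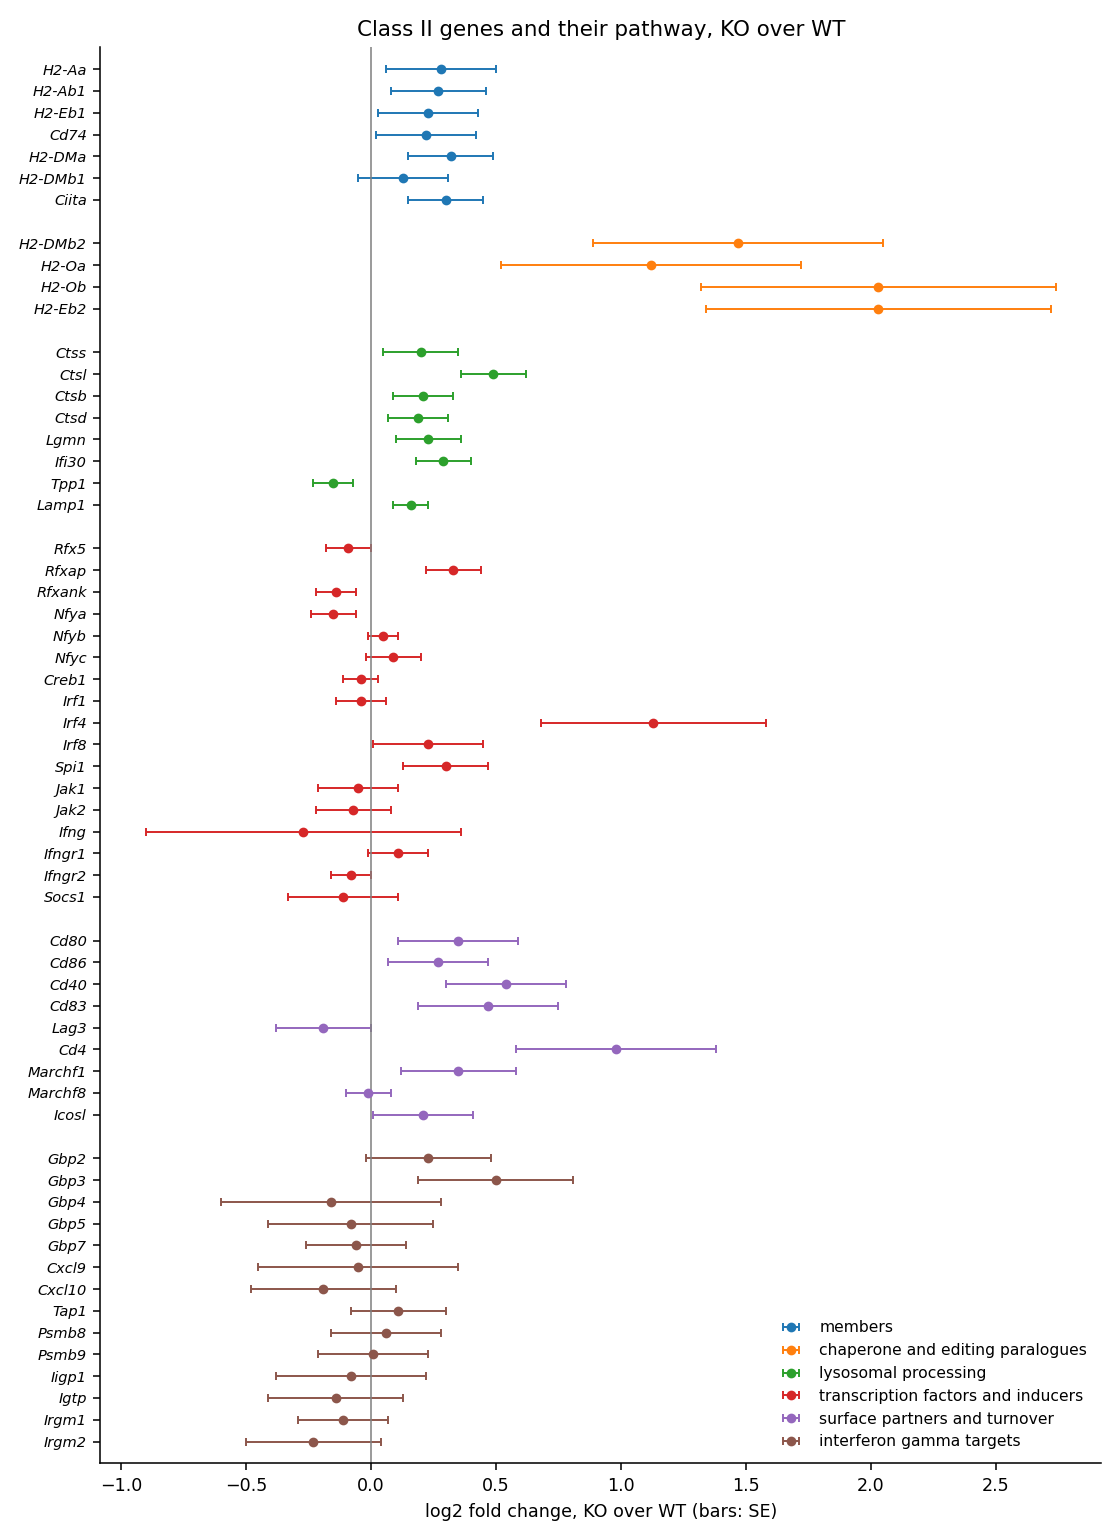
Log2 fold change, KO over WT, with its SE, for the 7 class II genes and genes of 5 pathway lists (1 row per gene, coloured by list). The 7 class II genes sit between 0.13 and 0.32, the paralogues H2-Ob and H2-Eb2 at 2.03 with wide bars, and the interferon gamma targets on both sides of 0.

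Some libraries stood apart by their lymphocyte markers. B cell markers summed to 582 CPM in KO 11, 250 CPM in KO 10 and 95.33 CPM in WT 24, against medians of 17.56 CPM in KO (lowest 6.436) and 22.73 CPM in WT (lowest 4.451). Much of these sums was 1 gene, Ighm, which had 284.2 CPM in KO 11, 104.1 CPM in KO 10 and 46.58 CPM in WT 24. Its medians were 14.33 CPM in KO and 17.45 CPM in WT. Cd79a, a B cell receptor subunit, had 39.41 CPM in KO 11, 20.16 CPM in KO 10 and 5.774 CPM in WT 24, and between 0 and 0.4743 CPM in the other 21 libraries. Of the 12 B cell markers listed, 5 passed the count filter and 0 were called. Ms4a1, a defining one, had 50.86 CPM in KO 11, 20.42 CPM in KO 10 and 7.789 CPM in WT 24, and between 0 and 0.4743 CPM in the other 21 libraries. Lymph node stroma markers summed to 208.6 CPM in KO 11, 44.95 CPM in KO 10 and 5.193 CPM in WT 24, with a KO median of 10.67 CPM and a WT range of 1.114 to 27.04 CPM. KO 12, which had the lowest KO sum of B cell markers, had 98.85 CPM, more than KO 10. Of the 3 tested, Glycam1, which is also a milk gene, was called (adjusted p = 0.0373 in edgeR), with 9697 CPM in KO 7, where the list summed to 9704 CPM. KO 11 also had the highest summed KO level of T cell markers (117.6 CPM, KO median 14.69, WT range 7.686 to 22.24). The same held for macrophage markers (2466 CPM, KO median 1519, WT highest 1766). It held too for dendritic cell markers (137.6 CPM, KO median 71.56, WT highest 141.7) and for skeletal muscle and adipocyte markers. The highest WT sum of dendritic cell markers was that of WT 23, and most of it was 1 gene, Fscn1, at 104.6 CPM.

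Within these 3 libraries the paralogues and the 7 class II genes had the same order, KO 11, KO 10, WT 24, but WT 24 stood differently among the other libraries. H2-DMb2 and H2-Oa, the alpha chain of H2-DO, were singled out after their values had been seen. H2-DMb2 had 25.4 CPM in KO 11, 13.15 CPM in KO 10 and 4.301 CPM in WT 24, above the range of 0.4901 to 2.812 CPM in the other 21 libraries. H2-Ob had 32.17, 17.08 and 4.728 CPM in the same libraries, against 0.2513 to 1.808 CPM in the others. H2-Oa had 7.174, 3.701 and 1.24 CPM there, against 0.04456 to 1.145 CPM. For H2-DMb2 and H2-Ob, WT 24, like KO 11 and KO 10, was thus above the other 21 libraries. For H2-Oa it was barely so, since WT 24 and WT 17 had 32 reads each, against 213 in KO 11 and 83 in KO 10.

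All 7 class II genes were highest in KO 11, and in WT 24 they lay inside the range of the other 21 libraries. H2-Ab1 had 465.3 CPM in KO 11 and 425.2 CPM in KO 10, at the top of all libraries, but 206 CPM in WT 24, under the median of 241 CPM of the other 21. Cd74 had 990.7, 936.4 and 500.8 CPM in the 3 libraries, against a median of 530.4 CPM and a highest value of 931.9 CPM in the others. H2-DMb1 had 45.3, 36.97 and 18.45 CPM, against a median of 28.59 CPM. With these 3 libraries left out, a choice made once the data had been seen, the log2 fold changes were 0.09 for H2-Aa, 0.079 for H2-Ab1, 0.057 for H2-Eb1, 0.03 for Cd74, 0.089 for H2-DMa, -0.027 for H2-DMb1 and 0.205 for Ciita, and 0 of 7 were called. With the B cell score as a covariate they were 0.062 for H2-Aa, 0.079 for H2-Ab1, 0.045 for H2-Eb1, 0.018 for Cd74, 0.091 for H2-DMa, -0.009 for H2-DMb1 and 0.191 for Ciita, and 0 of 7 were called.

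**Figure D4:**
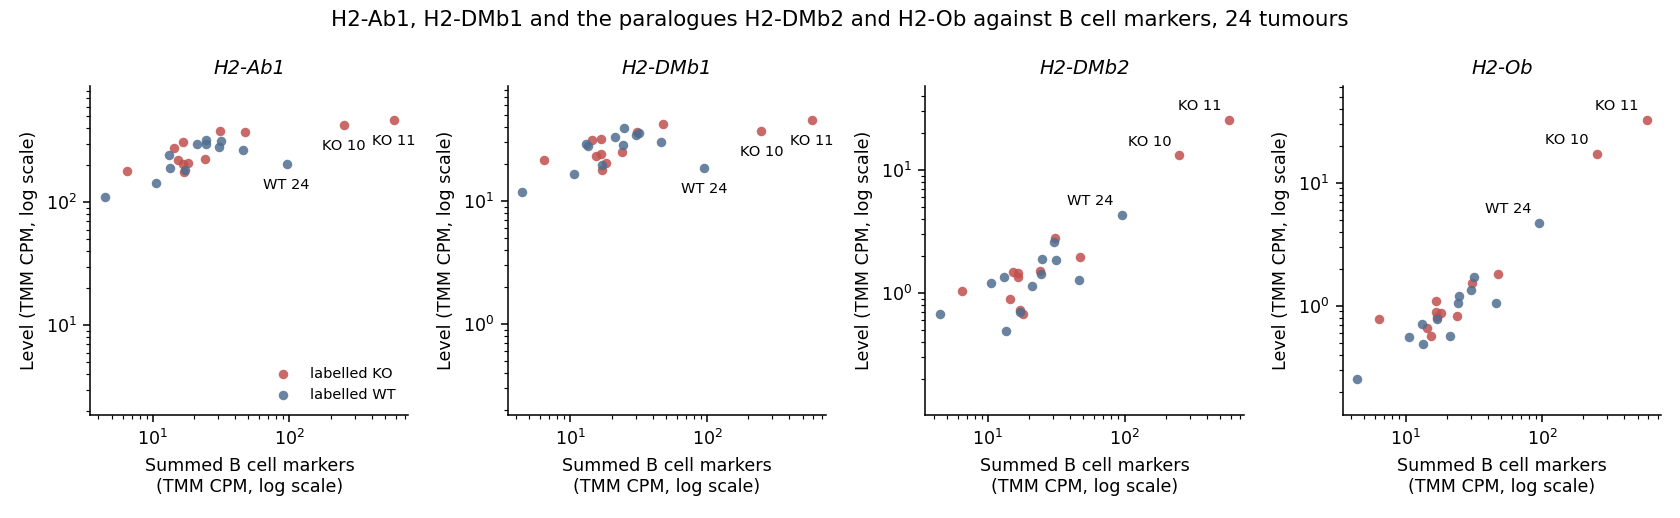
Level of H2-Ab1, H2-DMb1, H2-DMb2 and H2-Ob (vertical axes, TMM CPM, log scale of equal span) against the summed CPM of 12 B cell markers (horizontal axes, log scale), 1 point per tumour, KO in red and WT in blue. In KO 11, KO 10 and WT 24, H2-DMb2 and H2-Ob lie above the other 21 tumours, while H2-Ab1 in WT 24, at 206 CPM, lies among them. Much of the sum on the horizontal axes was Ighm, with medians of 14.33 CPM in KO and 17.45 CPM in WT.

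Across tumours, H2-Ab1 was set against scores of cell type markers, the mean centred log2 CPM of the tested genes of each list. With the score over interferon gamma targets these made 36 relations for H2-Ab1 and Ciita in both groups. The relation to dendritic cell markers had the highest r in each group, 0.902 in KO (n = 12, permutation p = 1e-05, the smallest possible; adjusted p = 0.00036; rho 0.944) and 0.856 in WT (permutation p = 0.00026, adjusted p = 0.00312; rho 0.776). Without the 2 farthest libraries r was 0.939 in KO and 0.83 in WT. Macrophage markers gave r = 0.769 in KO (permutation p = 0.00478, adjusted p = 0.0191; rho 0.755) and 0.719 in WT (permutation p = 0.00831, adjusted p = 0.0299; rho 0.699). The KO relation missed the threshold without KO 11 (r = 0.703, adjusted permutation p = 0.07164), and the WT value was 0.573 without WT 23 and 0.50 without WT 23 and WT 20 (permutation p = 0.14). T cell markers gave r = 0.867 in KO (adjusted permutation p = 0.00036; rho 0.916) and 0.854 in WT (adjusted permutation p = 0.00526; rho 0.671), and 0.548 in WT without WT 23 and WT 18 (permutation p = 0.102). By rho, the WT relations of macrophage and T cell markers missed the threshold (adjusted permutation p = 0.0697 and 0.0817). That of dendritic cell markers in WT passed by rho (adjusted permutation p = 0.0398).

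B cell markers gave r = 0.789 with H2-Ab1 in KO (adjusted permutation p = 0.0036; rho 0.755), which was 0.632 without KO 11 and KO 10 (permutation p = 0.0501), and 0.497 in WT (adjusted permutation p = 0.146; rho 0.58). Without WT 24 the WT value was 0.829 (adjusted permutation p = 0.00636), and without WT 24 and WT 23 it was 0.706 (permutation p = 0.0236). The epithelial markers had r = -0.497 in KO (adjusted permutation p = 0.142; rho -0.434) and 0.125 in WT (adjusted permutation p = 0.718; rho 0.098), and the KO value was -0.069 without KO 12 and KO 11. Adipocyte markers gave r = 0.52 in KO (adjusted permutation p = 0.132; rho 0.413) and 0.775 in WT (adjusted permutation p = 0.0173; rho 0.643), and the WT value was 0.617 without WT 23 (adjusted permutation p = 0.1055). The WT relation of adipocyte markers also missed the threshold by rho (adjusted permutation p = 0.101). For skeletal muscle and lymph node stroma markers no relation with H2-Ab1 passed, with r of -0.008 and 0.525 in KO and 0.537 and 0.437 in WT (adjusted permutation p from 0.132 to 0.982). Interferon gamma targets gave r = 0.683 in KO (adjusted permutation p = 0.0439; rho 0.804) and 0.575 in WT (adjusted permutation p = 0.106; rho 0.552). The KO relation missed the threshold when any 1 KO library other than KO 6 and KO 7 was left out, with r of 0.607 (without KO 2) to 0.696, and also, at an unchanged r, without WT 23. Ciita had r = 0.227 with these targets in KO (adjusted permutation p = 0.536; rho 0.392) and -0.158 in WT (adjusted permutation p = 0.663; rho -0.203), and the KO value was 0.586 without KO 7 (adjusted permutation p = 0.1024). With Ciita in KO, macrophage markers gave r = 0.765 (adjusted permutation p = 0.0173; rho 0.629), dendritic cell markers 0.758 (0.0189; rho 0.622), T cell markers 0.721 (0.0344; rho 0.692) and lymph node stroma markers 0.716 (0.0322; rho 0.35). None of the 4 passed by rho, and without KO 11 all 4 missed the threshold by r. The values were then 0.692 for macrophage, 0.569 for dendritic cell, 0.523 for T cell and 0.557 for lymph node stroma markers (adjusted permutation p from 0.07164 to 0.2059). The lymph node stroma relation also missed it without KO 7, the library with 9697 CPM of Glycam1 (r = 0.616, adjusted permutation p = 0.09566). Without KO 11 and KO 7 its r was 0.095 (permutation p = 0.793). In WT no relation of Ciita to a list passed. In bulk tumours, fewer cells of a type and less RNA per cell cannot be told apart, and markers of several immune cell types were high in the same tumours.

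Of 12 macrophage markers, 11 had a positive log2 fold change, with a median of 0.31 and 0 called, where 8119 of all 15820 tested genes had a positive one. Their sums were 1010, 1519 and 2466 CPM (lowest, median, highest) in KO and 658.3, 1341 and 1766 CPM in WT, and Adgre1, Csf1r and Cd68 averaged 43.53, 98.32 and 42.51 CPM in KO and 38.09, 85.76 and 36.54 CPM in WT. Dendritic cell markers summed to 50.14, 71.56 and 137.6 CPM in KO and 56.62, 80.01 and 141.7 CPM in WT, with 9 of 11 log2 fold changes positive and 0 called. Of these genes, Fscn1 alone had 12.48, 14.6 and 65.9 CPM in KO and 10.52, 15.58 and 104.6 CPM in WT. Flt3, Zbtb46 and Xcr1 averaged 1.342, 6.536 and 1.023 CPM in KO and 0.7682, 6.041 and 0.6765 CPM in WT. With the macrophage score as a covariate the log2 fold changes of H2-Aa, H2-Ab1, H2-Eb1, Cd74 and H2-DMb1 were -0.074, -0.023, -0.089, -0.114 and -0.117 and those of H2-DMa and Ciita 0.026 and 0.090, none past the threshold. The log2 ratio of H2-Ab1 to the macrophage score differed by -0.043 ± 0.135 between the groups (permutation p = 0.7547, adjusted p = 0.897) and that to the dendritic cell score by -0.058 ± 0.11 (permutation p = 0.6155, adjusted p = 0.897).

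The genes whose pattern was most like that of the 6 structural genes were picked by Pearson r over all 24 libraries after group means were subtracted, among 14299 genes with a mean of at least 1 CPM. They were Neurl3 (r = 0.956), Il10ra (0.944), Themis2 (0.944), Plcb2 (0.928), Pld4 (0.92), Irf5 (0.916), Unc93b1 (0.914), Selplg (0.91), Tifab (0.899) and Plbd1 (0.895). Il10ra encodes a chain of the interleukin 10 receptor, Irf5 a transcription factor of myeloid cells and B cells, and Unc93b1 the protein that brings endosomal Toll-like receptors to their compartment. These genes lie on other chromosomes than the H2 cluster, and 0 of 10 were called. Irf5 averaged 16.18 CPM in KO and 12.58 CPM in WT (log2 fold change 0.36 ± 0.20, adjusted p = 0.3097 in edgeR; 0.234 without KO 11), and Plcb2 5.636 CPM in KO and 5.881 CPM in WT (adjusted p = 0.9043 in edgeR).

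The 5 genes most like Ciita were different ones: Rab3il1 (r = 0.837), Apbb1ip (0.798), Syk (0.796), Btk (0.782) and Pik3cd (0.778). Syk and Btk encode kinases that signal from antigen and Fc receptors in B cells and myeloid cells, and Pik3cd a lipid kinase subunit of leukocytes. Syk averaged 19.97 CPM in KO and 14.39 CPM in WT (log2 fold change 0.47 ± 0.26, adjusted p = 0.3128 in edgeR) and Btk 5.232 CPM in KO and 3.514 CPM in WT (0.58 ± 0.26, adjusted p = 0.2428 in edgeR). Without KO 11 these log2 fold changes were 0.231 for Syk and 0.350 for Btk. All these libraries share 1 set of tumours, so the values of r describe likeness across them and carry no test.

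Genes around the H2 cluster were read to see whether the chromosome 17 stretch moved as a block. From 250 kb before H2-DMa to 250 kb after H2-Eb1 (chromosome 17, 34088667 to 34785648), 48 other gene IDs are listed and 31 were tested. None was called. An unadjusted p under 0.05 in edgeR was found for 3, Col11a2 and the paralogues H2-Ob and H2-DMb2, where 18.9% of all tested genes had one. A log2 fold change above 0 was found for 17 of the 31, and for 8119 of all 15820 tested genes. The median of the 31 was 0.02. Col11a2, a collagen gene, averaged 2.48 CPM in KO and 8.37 CPM in WT (log2 fold change -1.76 ± 0.50, adjusted p = 0.1051 in edgeR), and its value was -0.765 without WT 13. The class I peptide transporter gene Tap1, inside the cluster, averaged 111.3 CPM in KO and 103.1 CPM in WT (log2 fold change 0.11 ± 0.19, adjusted p = 0.7633 in edgeR).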

How the data were processed

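The deposited count files give whole-number reads per gene, made by the authors with featureCounts 2.0.0 on a GRCm39 RefSeq annotation, per the file headers. Those headers record no strand option and no counting of reads with several positions. Per the labels' protocols, RNA from frozen tumours was sequenced with a stranded mRNA kit. STAR and Subread stand, without a version, in the submitters' processing notes. The authors' deposited table lists a p-value and its adjusted form, an F score, a signed fold, and log2 values (fold change and mean CPM) per gene, and was used for the values credited to it.

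After filterByExpr and TMM scaling, edgeR 4.0.16 was run on the counts (quasi-likelihood test, two-sided, group as the sole term, threshold 0.05 after Benjamini-Hochberg adjustment) in R 4.3.3. Log2 CPM used a prior count of 2. Genes that failed the filter were added in an extended fit. Ratios and correlations used permutation tests with 100000 resamples, two-sided, adjusted over 10 ratios, 42 member relations and 36 list relations. The edgeR steps were tested on simulated counts.

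The genes, lists and tests were chosen with earlier results of these data known. Named are the 7 genes, the 2 smallest p-values of each pathway list where none was called, the 10 and 5 genes most alike, the 2 smallest p-values among neighbours, and Nr0b2. H2-DMb2, H2-Oa, H2-Ea, Ctss, Rfx5, Rfxank, Ifng, Marchf1 and Tap1 were added after their values were seen, and 2 genes of the lists are not reported here. Alternatives were RLE and upper-quartile scaling, no filter and 1 CPM in 12 libraries, limma 3.58.1 voom, DESeq2 1.42.0, macrophage, B cell or dendritic cell scores as covariates, a prior count of 0.5, and leaving out each library. The labels give no batch. Counting intervals and floors (3 counts) cover counting error only. Promoter sequences are RefSeq's.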

Additional observations from a re-analysis of the deposited data

How the results depend on the processing

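Of the 7 class II genes, 0 were called under each of 34 alternatives, and the smallest adjusted p was 0.218, for Ciita. The 50 calls over all genes became 8 with the macrophage score, 13 with the B cell score and 107 with the dendritic cell score as a covariate, 418 in DESeq2 (204 higher, 214 lower), 10 without KO 10, KO 11 and WT 24 (all higher), and 9 to 72 leaving out single libraries, lowest without WT 18; the cause was not tested. No filter gave 30 higher and 15 lower calls, the covariates 8 and 0, 11 and 2, and 79 and 28. No paired analysis was possible because the groups share no replicate number (1 to 12 in KO, 13 to 24 in WT). Single libraries moved the class II log2 fold changes between 0.058 (H2-DMb1 without WT 23) and 0.359 (H2-DMa without KO 5), all above 0. Without KO 11, H2-DMa was at 0.19, H2-Aa at 0.19, H2-Ab1 at 0.182 and Cd74 at 0.13, and without WT 23 H2-Eb1 was at 0.149.

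Of the values that turned sign, none was past the threshold before or after, and the one that moved most was H2-Ob. With the macrophage covariate, the log2 fold changes were -0.038 for Neurl3, -0.121 for Il10ra, -0.251 for Themis2, -0.178 for Pld4, -0.014 for Irf5, -0.064 for Unc93b1, -0.031 for Selplg, -0.141 for Tifab, -0.027 for Plbd1, -0.005 for Rab3il1, -0.047 for Apbb1ip, -0.087 for Syk and -0.022 for Pik3cd; H2-Aa, H2-Ab1, H2-Eb1, Cd74 and H2-DMb1 were at -0.074, -0.023, -0.089, -0.114 and -0.117. With the dendritic cell covariate they were -0.038 for H2-Aa, -0.043 for H2-Eb1, -0.061 for Cd74, -0.084 for H2-DMb1, -0.054 for H2-Ob, -0.074 for Il10ra, -0.160 for Themis2, -0.092 for Pld4, -0.033 for Unc93b1, -0.080 for Tifab, -0.045 for Plbd1 and -0.008 for Pik3cd. With the B cell covariate H2-DMb1, Themis2 and Pld4 were at -0.009, -0.085 and -0.018. Without KO 10, KO 11 and WT 24, H2-DMb1 was at -0.027, Themis2 at -0.090, Pld4 at -0.025, Unc93b1 and Plbd1 at -0.001 and Tifab at -0.007.

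Leaving out single libraries, Themis2 ran from -0.009 to 0.167 and Plcb2 from -0.192 to 0.012. The difference of log2 ratios to H2-Ab1 ran from -0.009 to 0.058 for H2-Aa, -0.024 to 0.043 for H2-DMa and -0.009 to 0.095 for Ciita, and that of H2-Ab1 from -0.082 to 0.014 against macrophage and -0.091 to 0.01 against dendritic cell markers. In KO, the r of skeletal muscle markers ran from -0.356 to 0.399 with H2-Ab1 and from -0.214 to 0.428 with Ciita; in WT that of epithelial markers with H2-Ab1 ran from -0.083 to 0.337. Of the 10 ratios 0 passed in any such fit, and 35 to 41 of the 42 relations between class II genes did, with 40 under a prior count of 0.5 or RLE scaling.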
